A study of Mus musculus with 4 samples.

Results

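The Klf4 dEC Nos3 null library was set against the control library in 19 of the 23 numbered clusters of a single-nucleus RNA sequencing study of mouse kidney cortex. The clusters are numbers 0 to 19 without 10, which leaves out the endothelial cell-like cluster 10 and clusters 20 to 22. They hold 5162 of 5491 nuclei of the Klf4 dEC Nos3 null library and 6357 of 6766 nuclei in the control, counted by arithmetic from the deposited averages. For each gene and cluster the measure is the log2 of (level + 0.1) in the Klf4 dEC Nos3 null library over (level + 0.1) in the control, where a level is the mean number of unique molecular identifiers (UMIs) per 10000 UMIs of a nucleus. A gene was tested in a cluster where either library reached 0.5 per 10000, and a gene is called past the limit where its log2 ratio reached 1, or -1 for genes that were lower. The added 0.1 makes the ratios of low genes smaller than those of their levels.

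Each of 4 genotypes has 1 library, and 2 of the 4 are compared here. The genotype label Klf4deltaECNos3-/-, written Klf4 dEC Nos3 null here, names mice with a loss of Klf4 in endothelial cells and of both copies of Nos3. Klf4deltaEC, written Klf4 dEC, names the endothelial loss of Klf4 with Nos3 intact, which the series title calls a knockdown, and Nos3-/-, written Nos3 null, the loss of Nos3 alone. The control is Klf4flox/flox, in which Klf4 is flanked by recombination sites and not deleted. The labels give C57BL/6J for all 4 libraries. They name no Cre driver, no age and no number of mice per library, and do not say whether the Nos3 null mice carry the Klf4 flox alleles. The series title asks what lower endothelial Klf4 does with and without Nos3. By the labels, then, the 19 clusters hold the kidney cells around the endothelium in which Klf4 was targeted. With 1 library a side there is no test, p-value or standard error. The genotype and the mouse, the dissection and the preparation cannot be told apart.

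Klf4 encodes a zinc-finger transcription factor, and Nos3 the endothelial nitric oxide synthase, whose product relaxes vessels and acts on neighbouring cells. The tubule runs from the proximal tubule, which reclaims most filtered solute, through the thick ascending limb and distal convoluted tubule, which carry sodium chloride, to the collecting duct, where principal cells move water and sodium and intercalated cells move acid and base. Kidney cells keep a circadian clock in which Arntl (BMAL1) pairs with Clock or with its relative Npas2 and drives the Per and Cry repressors and output factors such as Dbp and Tef. Glucocorticoids, which follow the day and rise with stress, switch on Fkbp5, Zbtb16 and Tsc22d3 in many cell types. Chaperones of the heat shock family and ubiquitin genes rise when proteins are damaged.

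Most of the 19 clusters were tubule by their markers, but not every one. Clusters 0, 1, 3, 5 and 6 were proximal tubule-like, with 2052 nuclei in the Klf4 dEC Nos3 null library and 2974 in the control. Clusters 2, 4 and 19 were thick ascending limb-like (1368 and 1451 nuclei in the same order), 9 distal convoluted tubule-like (215 and 220), 11 connecting tubule-like (154 and 195), 8 principal cell-like (300 and 297), 14 and 16 intercalated cell-like (266 and 255) and 18 thin limb-like (103 and 140). Cluster 13 was stromal and mural cell-like (84 and 160 nuclei) and cluster 15 podocyte-like (105 and 131), so neither is a tubule cluster by its markers. Clusters 7, 12 and 17 stayed unnamed. Cluster 12 was the shallowest, with a mean of 962 UMIs per nucleus in the Klf4 dEC Nos3 null library and 961 in the control. Over the 19 clusters the Klf4 dEC Nos3 null library was the deepest of the 4, at a mean of 6311 UMIs per nucleus, against 4830 in Klf4 dEC, 2730 in the Nos3 null library and 5393 in the control.

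The levels of the targeted genes do not show the labelled deletions. Klf4 over the 19 clusters stood at 0.0186 per 10000 in Klf4 dEC Nos3 null, 0.0472 in Klf4 dEC, 0.0276 in the Nos3 null library and 0.0165 in the control, far under the level at which a gene was tested. In the endothelial cell-like cluster 10, outside the 19, it stood at 0.824 (95% exact Poisson interval 0.547 to 1.19) in Klf4 dEC Nos3 null and 0.621 (0.406 to 0.910) in the control, and these intervals overlap. Nos3 stood there at 2.07 (1.61 to 2.61) in Klf4 dEC Nos3 null and 1.26 (0.946 to 1.65) in the control. So the library labelled as lacking both genes was not the lower one in either. Which exons were deleted is not in the labels, and tags from outside a deleted stretch check nothing. Klf4 dEC Nos3 null therefore stands below for the library carrying that label, and each direction for a difference between labels. The Y-linked genes Uty, at 2.93 in Klf4 dEC Nos3 null and 2.92 in the control, and Ddx3y, at 1.31 and 1.01 in the same order, were detected in both, while Xist was at 0.00544 and 0.00356, so both libraries read as male. Intervals here and below cover counting error alone and not differences between nuclei, mice or preparations.

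Of 79033 gene and cluster pairs tested, 2363 were past the limit higher in Klf4 dEC Nos3 null (2.99%) and 1599 lower (2.02%). Cluster 12 alone gave 855 of the higher (16.5% of its 5189 genes) and 607 of the lower (11.7%), or 28.2% in either direction, at an effective depth of 89191 UMIs in Klf4 dEC Nos3 null and 107031 UMIs in the control. Without it there were 1508 higher and 992 lower of 73844 pairs. Among the other 18 clusters the count of genes past the limit in either direction ran from 33 in cluster 7 (0.799% of its genes) to 423 in thick ascending limb-like cluster 19 (9.58%). Cluster 0, the proximal tubule-like cluster with the fewest such genes, had 38 (1.01%), and principal cell-like cluster 8 had 129 (3.05%). The other proximal tubule-like clusters, 1, 3, 5 and 6, had 1.45%, 2%, 1.65% and 1.42% of their genes past the limit, thick ascending limb-like clusters 2 and 4 had 1.42% and 1.24%, distal convoluted tubule-like cluster 9 had 1.57% and connecting tubule-like cluster 11 had 1.52%. Intercalated cell-like clusters 14 and 16 had 2.04% and 5.39%, podocyte-like cluster 15 had 4.22%, thin limb-like cluster 18 had 5.82% and unnamed cluster 17 had 6.99%. More genes were higher than lower in 18 of 19 clusters, stromal and mural cell-like cluster 13 being the exception with 146 higher (3.09%) and 206 lower (4.36%), or 7.46% in either direction. The median log2 ratio of all tested genes was above 0 in 19 of 19 clusters, between 0.0139 and 0.156. Cluster 19 held 54 nuclei in Klf4 dEC Nos3 null and 68 in the control, and clusters 12, 13 and 17, which also had many genes past the limit, were among the others with the fewest UMIs. These counts are therefore not comparable across clusters of unlike depth.

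**Figure D1:**
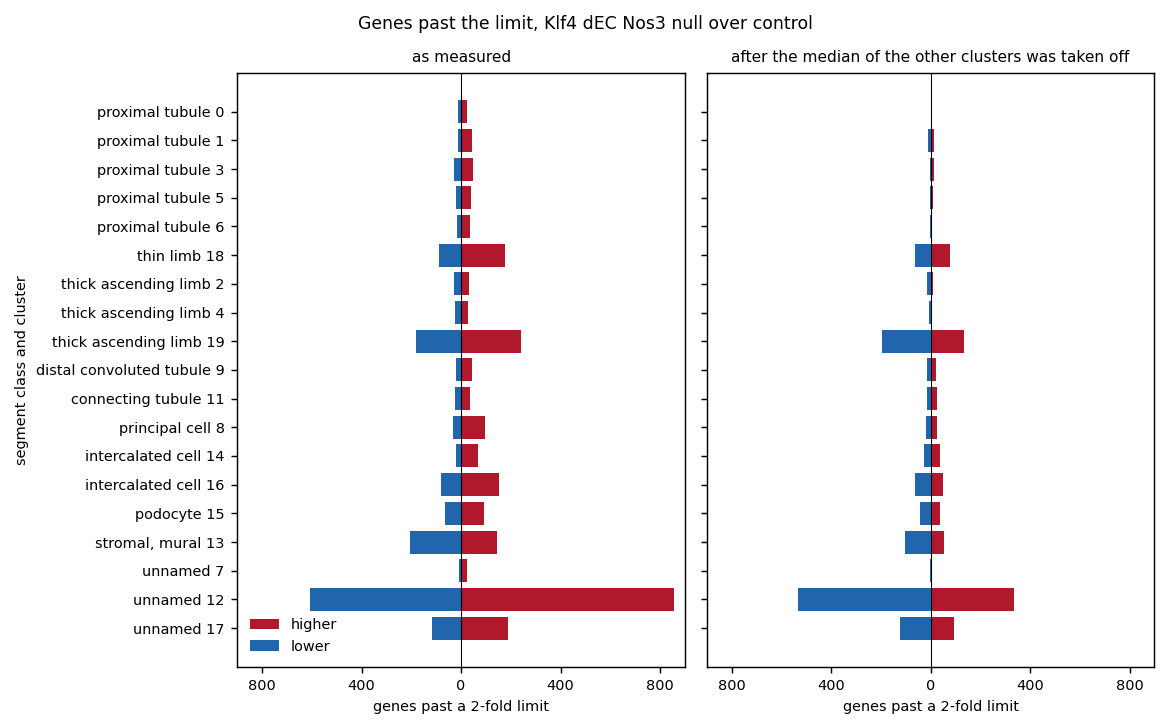
Number of genes past the limit (x axis) in each of the 19 clusters (rows, named by class and number), with bars to the right for genes higher and to the left for genes lower in Klf4 dEC Nos3 null than in the control, as measured (left panel) and after the median log2 ratio of the other tested clusters was subtracted from each gene (right panel). Cluster 12 reaches 855 higher and 607 lower genes, while cluster 7 has 33 in all, and proximal tubule clusters 0 and 6 keep 3 and 6 in the right panel.

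Most genes past the limit were so in a single cluster. Of 8076 genes tested in at least 1 cluster, 1795 were past the limit higher in 1 or more clusters, 1468 of them in just 1, 30 in 5 or more and 3 in 10 or more. Past the limit lower there were 1303 genes, with 1134 in just 1 cluster, 12 in 5 or more and 3 in 10 or more, and 139 genes passed in both directions in different clusters. Subtracting from each gene its median over the other clusters took the counts to 950 higher and 1240 lower of 74803 pairs. The median taken off includes the other clusters of the same class. Proximal tubule-like clusters 0, 1, 3, 5 and 6 had 3, 24, 16, 13 and 6 genes past the limit after subtraction, against 38, 56, 76, 62 and 54 before it. Unnamed cluster 7 had 3 against 33, and principal cell-like cluster 8 had 44 against 129. Cluster 19 kept 333 of 423 by count.

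A gene is called shared here where it was tested in at least 10 clusters and its log2 ratio was at least 0.5 in the same direction in at least 80% of them. The filter admits a cluster through either library, so a median over tested clusters can lie further from 0 than one over all 19. Of 3883 genes tested in at least 10 clusters, 22 were shared and higher (0.567%) and 12 shared and lower (0.309%), 34 in all (0.876%). Rescaling each cluster so that its median log2 ratio was 0 gave 14 higher and 16 lower. The 34 genes fall into a few kinds: clock and clock-output factors, glucocorticoid-responsive genes, chaperone genes, proximal tubule transport and metabolism genes, and a remainder. Pooled levels below are means over the 19 clusters with the same cluster weights in each library, so they do not depend on how many nuclei of each class a library held.

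**Figure D2:**
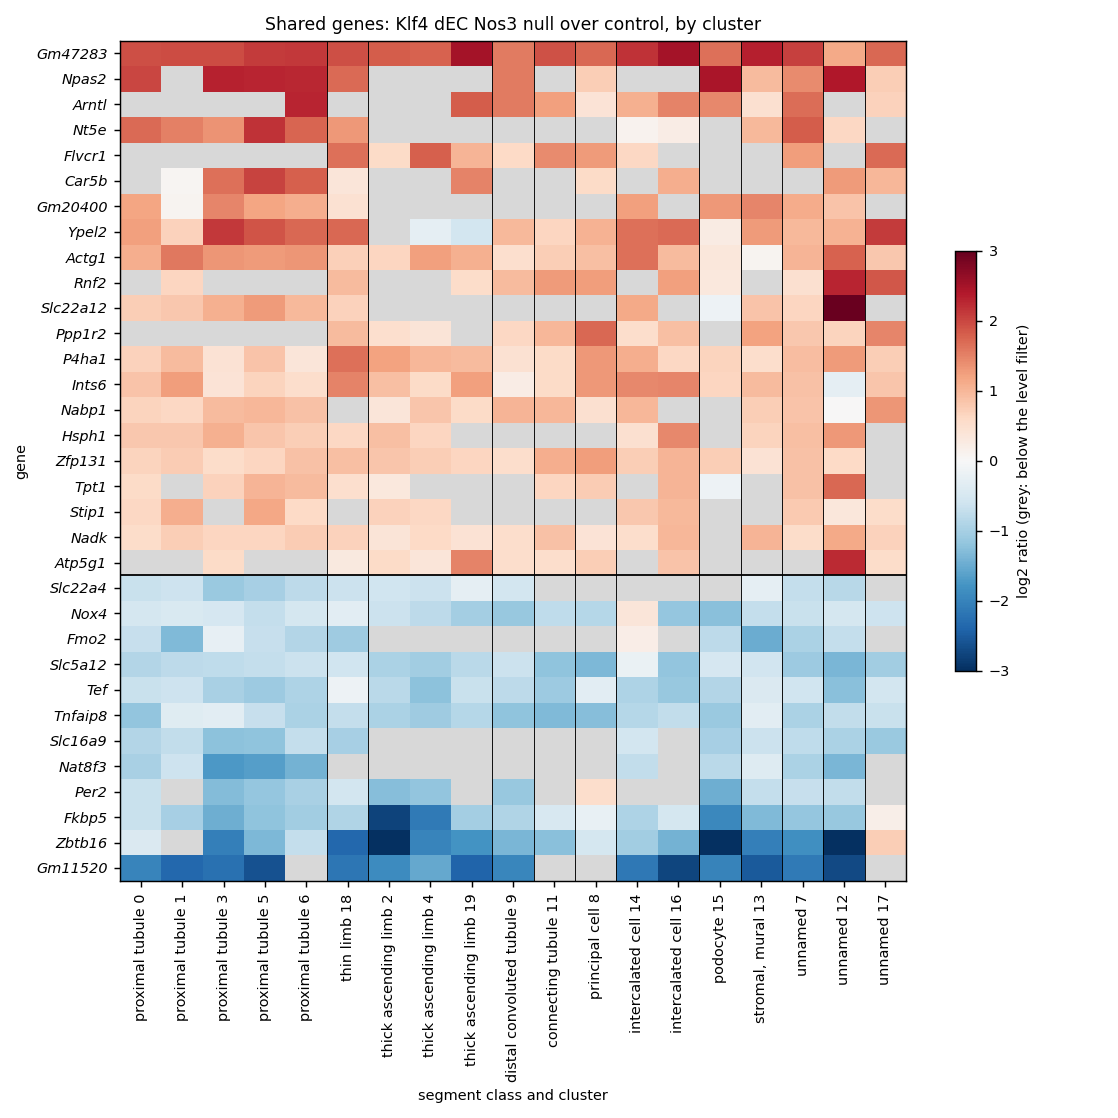
Log2 ratio of Klf4 dEC Nos3 null over control for 33 of the 34 shared genes (rows) in the 19 clusters (columns, grouped by class), in grey where a gene was below the level filter. Gm47283 is higher in 19 of 19 clusters and Tef lower in 19 of 19, while Zbtb16 is lowest in podocyte-like cluster 15, unnamed cluster 12 and thick ascending limb-like cluster 2, Fkbp5 is lowest in thick ascending limb-like clusters 2 and 4, and both are above 0 in unnamed cluster 17.

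Clock genes stood on both sides. Npas2, the partner of Arntl, had a pooled level of 0.634 (0.601 to 0.669) in Klf4 dEC Nos3 null, 0.174 in Klf4 dEC, 0.243 in Nos3 null and 0.142 (0.128 to 0.158) in the control. It was higher than in the control in 19 of 19 clusters and past the limit in 9 of the 12 where it was tested, with a median log2 ratio of 1.84 (range 0.73 to 2.45). Arntl stood at 0.560 (0.528 to 0.592) in Klf4 dEC Nos3 null, 0.2498 in Klf4 dEC, 0.404 in Nos3 null and 0.182 (0.164 to 0.201) in the control, higher in 18 of 19 clusters, with a median of 1.43 in 11 tested. Both activator genes thus stood highest of the 4 libraries in Klf4 dEC Nos3 null. Over all 19 clusters, tested or not, their median log2 ratios were 1.43 for Npas2 and 1.23 for Arntl. Npas2 reached at most 0.535 in any cluster of the control, so the filter favoured clusters where Klf4 dEC Nos3 null was high. Per2, a repressor of the pair, stood at 0.339 (0.314 to 0.366) in Klf4 dEC Nos3 null, 0.557 in Klf4 dEC, 0.458 in Nos3 null and 0.656 (0.622 to 0.690) in the control. It was lower in 18 of 19 clusters (median -0.98 in 13 tested and -0.71 over all 19). Tef, a PAR bZIP factor driven by the clock, stood at 2.53 (2.46 to 2.59) in Klf4 dEC Nos3 null, 3.59 in Klf4 dEC, 3.67 in Nos3 null and 4.46 (4.38 to 4.54) in the control, lower in 19 of 19 clusters (median -0.81). These repressor and output genes stood lowest of the 4 libraries in Klf4 dEC Nos3 null, on the other side from Npas2 and Arntl.

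Promoters of 5 shared genes are shown because clock, glucocorticoid-responsive and chaperone genes are among the shared ones. These windows were searched for short motifs of such factors. Each runs from 250 bases before to 50 bases after the RefSeq start on GRCm38.p6, on the gene's own strand, with motif matches on either strand in capitals. The motifs searched included the E-box CACGTG bound by Arntl and its partners and the D-box TTANGTAA bound by Dbp and Tef. The heat shock element GAANNTTCNNGAA and the glucocorticoid response element GNACANNNTGTNC were searched too. TNGGTCA was searched as a loose form of the ROR response element, with N for any base. Its matches need not be that element. The Arntl window lies at chr7:113207215-113207514 (plus strand), that of Npas2 at chr1:39194022-39194321 (plus), Tef at chr15:81802423-81802722 (plus), Fkbp5 at chr17:28486100-28486399 (minus) and Hsph1 at chr5:149636287-149636586 (minus).
Arntl: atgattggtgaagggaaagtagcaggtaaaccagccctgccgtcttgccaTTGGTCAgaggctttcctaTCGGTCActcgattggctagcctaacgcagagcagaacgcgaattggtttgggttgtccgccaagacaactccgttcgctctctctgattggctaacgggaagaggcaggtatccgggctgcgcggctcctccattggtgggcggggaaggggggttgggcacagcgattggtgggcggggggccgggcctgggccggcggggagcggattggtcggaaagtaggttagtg
Npas2: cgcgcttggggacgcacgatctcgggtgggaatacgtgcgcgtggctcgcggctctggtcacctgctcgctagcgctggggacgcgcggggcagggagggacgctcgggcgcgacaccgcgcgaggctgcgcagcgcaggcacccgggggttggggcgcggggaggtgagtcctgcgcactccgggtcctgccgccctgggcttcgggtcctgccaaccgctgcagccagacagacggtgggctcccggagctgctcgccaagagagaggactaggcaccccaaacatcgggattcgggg
Tef: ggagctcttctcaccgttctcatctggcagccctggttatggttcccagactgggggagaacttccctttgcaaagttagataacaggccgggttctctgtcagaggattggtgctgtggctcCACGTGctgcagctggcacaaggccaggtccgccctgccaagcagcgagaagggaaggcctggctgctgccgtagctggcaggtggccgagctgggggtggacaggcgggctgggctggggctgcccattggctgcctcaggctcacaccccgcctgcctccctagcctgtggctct
Fkbp5: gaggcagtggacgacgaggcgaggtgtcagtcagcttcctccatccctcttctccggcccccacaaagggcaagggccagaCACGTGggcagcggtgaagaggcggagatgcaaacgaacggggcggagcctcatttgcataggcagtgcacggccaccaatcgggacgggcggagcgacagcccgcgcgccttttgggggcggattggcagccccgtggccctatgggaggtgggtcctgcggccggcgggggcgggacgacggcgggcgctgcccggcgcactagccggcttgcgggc
Hsph1: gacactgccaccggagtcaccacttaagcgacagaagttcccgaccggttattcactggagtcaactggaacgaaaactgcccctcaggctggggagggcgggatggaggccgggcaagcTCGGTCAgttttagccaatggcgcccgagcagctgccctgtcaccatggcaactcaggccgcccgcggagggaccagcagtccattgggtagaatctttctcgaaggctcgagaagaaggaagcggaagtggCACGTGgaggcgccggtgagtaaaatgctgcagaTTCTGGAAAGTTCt
The Arntl window holds 2 matches of TNGGTCA, and the Tef and Fkbp5 windows 1 E-box each. The Hsph1 window holds 1 E-box, 1 match of TNGGTCA and, on the opposite strand, 1 heat shock element. None of the 5 motifs is in the Npas2 window.

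Of the 34 shared genes 27 had a promoter in the RefSeq table, 19 of the higher and 8 of the lower ones. The E-box was in 3 of the 19 (Actg1, Hsph1 and Atp5g1) and in 3 of the 8 (Slc22a4, Tef and Fkbp5), against 7.24% of all 27025 promoters and 10.4% of those of tested genes. The letters TNGGTCA were in 2 of the 19 and 0 of the 8, against 10.9% of all promoters. The heat shock element was in 1 of the 19 and 0 of the 8, against 0.529%. The D-box, in 2.34% of all promoters, and the glucocorticoid response element, in 0.463%, were in 0 of the 27. These are matches of letters in one short window per gene.

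The rest of the clock list was lower or near 0. Of 12 core clock genes 11 were in the table and 7 were tested in at least 10 clusters, with 3 above 0 and a median of -0.07, against 0.06 for all 3883 genes. Clock itself stood at 1.34 in Klf4 dEC Nos3 null and 1.29 in the control (pooled log2 ratio 0.05), and Nr1d2, a repressor of Arntl, at 1.43 and 1.66 in the same order (-0.20). Cry2 stood at 0.240 in Klf4 dEC Nos3 null and 0.391 in the control (-0.53). The clock-output list had 1 of 5 tested genes above 0 and a median of -0.24. Its low members leaned the same way: Dbp, a PAR bZIP factor like Tef, stood at 0.142 in Klf4 dEC Nos3 null, 0.299 in Klf4 dEC, 0.248 in the Nos3 null library and 0.453 in the control and was lower in 19 of 19 clusters, though it reached the filter in just 5. Ciart, a clock repressor, stood at 0.0361 in Klf4 dEC Nos3 null and 0.245 in the control and was lower in 19 of 19, though it reached the filter in none.

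By class, principal cell-like nuclei stood apart in Arntl and Per2. Npas2 stood at 0.939 in Klf4 dEC Nos3 null and 0.165 in the control in proximal tubule-like nuclei, at 0.764 and 0.0576 in podocyte-like nuclei, and at 0.772 and 0.424 in principal cell-like nuclei, always in that order. Arntl stood at 1.49 in Klf4 dEC Nos3 null and 0.444 in the control in distal convoluted tubule-like nuclei, at 2.02 and 0.808 in connecting tubule-like nuclei and at 0.820 and 0.590 in principal cell-like nuclei. Per2 was at 0.219 in Klf4 dEC Nos3 null and 0.642 in the control in thick ascending limb-like nuclei, but at 0.916 and 0.6003 in principal cell-like nuclei. The principal cell-like cluster was the 1 of 19 in which Per2 was higher in Klf4 dEC Nos3 null. Per1, another repressor that also answers hormones and acute signals, had a pooled log2 ratio of 0.02, but in principal cell-like nuclei stood at 1.39 (1.17 to 1.65) in Klf4 dEC Nos3 null, 1.10 in Klf4 dEC, 0.683 in Nos3 null and 0.170 (0.0965 to 0.278) in the control.

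Glucocorticoid-responsive genes were lower. Zbtb16, a zinc-finger factor induced by glucocorticoids, had a pooled level of 0.847 (0.806 to 0.890) in Klf4 dEC Nos3 null, 1.35 in Klf4 dEC, 0.973 in Nos3 null and 3.37 (3.29 to 3.46) in the control. Its log2 ratio was past the limit in 14 of 18 clusters, with a median of -1.61 (range -3.34 to 0.75). Fkbp5, a co-chaperone of the glucocorticoid receptor, stood at 2.14 (2.08 to 2.21) in Klf4 dEC Nos3 null, 2.73 in Klf4 dEC, 1.29 in Nos3 null and 5.52 (5.43 to 5.62) in the control, with a median of -1.02 (range -2.78 to 0.16) and 10 of 19 clusters past the limit. The control library stood above the other 3 in both genes. Tsc22d3 (GILZ), another glucocorticoid-induced gene, was lower in 19 of 19 clusters, at 0.456 in Klf4 dEC Nos3 null, 0.621 in Klf4 dEC, 0.435 in the Nos3 null library and 0.796 in the control. Klf9, a KLF factor induced by glucocorticoids, stood at 2.21 in Klf4 dEC Nos3 null, 3.90 in Klf4 dEC, 3.23 in the Nos3 null library and 2.97 in the control (pooled log2 ratio -0.41). Of 14 listed glucocorticoid and mineralocorticoid targets and receptors, 8 were tested in at least 10 clusters, with 1 above 0 and a median of -0.47. Where the mean of both libraries had to reach 0.5, a filter that does not favour either, 1 of 9 was above 0, with a median of -0.41, against 2440 of 3967 genes and 0.06. The glucocorticoid receptor Nr3c1 stood at 1.44 in Klf4 dEC Nos3 null and 1.76 in the control, while Sgk1, a kinase induced by both hormones, had a pooled log2 ratio of 0.42.

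The size of the glucocorticoid-gene difference varied by class. In thick ascending limb-like nuclei Zbtb16 stood at 1.05 in Klf4 dEC Nos3 null and 6.44 in the control, and Fkbp5 at 1.37 (1.27 to 1.48) and 7.38 (7.13 to 7.64) in the same order. In podocyte-like nuclei Zbtb16 stood at 0.276 (0.139 to 0.490) in Klf4 dEC Nos3 null and 3.72 (3.12 to 4.39) in the control, and Fkbp5 at 0.823 and 3.42. Proximal tubule-like nuclei differed less, with Zbtb16 at 0.545 and 1.44 and Fkbp5 at 2.79 and 5.86, again with Klf4 dEC Nos3 null given before the control. Principal cell-like nuclei differed least among the named classes, with Zbtb16 at 1.22 in Klf4 dEC Nos3 null and 1.79 in the control and Fkbp5 at 1.26 and 1.48. Unnamed cluster 17 went the other way, with Zbtb16 at 1.63 in Klf4 dEC Nos3 null and 0.934 in the control.

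**Figure D3:**
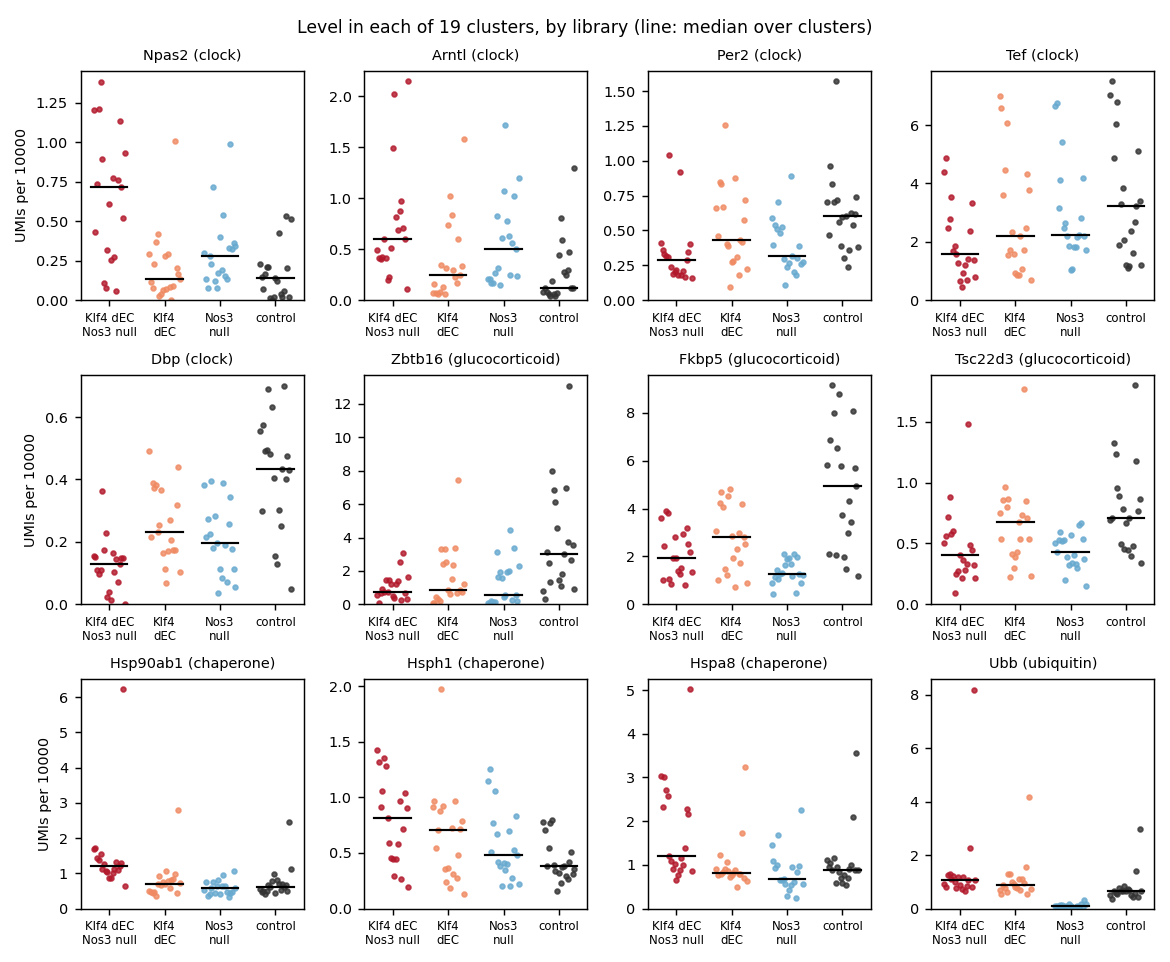
Level (y axis, UMIs per 10000) of 12 clock, glucocorticoid-responsive, chaperone and ubiquitin genes, with 1 point for each of the 19 clusters in each library, in the order Klf4 dEC Nos3 null, Klf4 dEC, Nos3 null and control, and a line at the median over clusters. Npas2 has its highest median, 0.717, in Klf4 dEC Nos3 null, against 0.142 in the control, and Zbtb16 and Fkbp5 are at medians of 0.767 and 1.95 in Klf4 dEC Nos3 null, against 2.99 and 4.95 in the control.

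Cytosolic chaperone genes were higher. Hsph1, a large chaperone of the HSP110 family, had a pooled level of 0.920 (0.880 to 0.961) in Klf4 dEC Nos3 null, 0.722 in Klf4 dEC, 0.680 in Nos3 null and 0.492 (0.465 to 0.520) in the control, with a median log2 ratio of 0.82 in 13 tested clusters. Stip1 (HOP), which links HSP70 to HSP90, stood at 0.516 in Klf4 dEC Nos3 null, 0.316 in Klf4 dEC, 0.402 in the Nos3 null library and 0.286 in the control. In both genes Klf4 dEC Nos3 null was the highest and the control the lowest of the 4 libraries. Of 14 listed heat shock and chaperone genes, 5 were tested in at least 10 clusters, and these were 5 of 5 above 0 with a median of 0.69. With the filter on the mean of both libraries they were 5 of 5, with a median of 0.78. Hsp90ab1, the constitutive HSP90, stood at 1.43 in Klf4 dEC Nos3 null, 0.681 in Klf4 dEC, 0.563 in the Nos3 null library and 0.629 in the control, and Hspa8, the constitutive HSP70, at 1.92, 0.947, 0.922 and 0.988 in that order. Ubb, a polyubiquitin gene, stood at 1.17 in Klf4 dEC Nos3 null, 0.951 in Klf4 dEC, 0.0965 in the Nos3 null library and 0.646 in the control. The proteasome and ubiquitin list had 4 of 5 tested genes above 0 and a median of 0.51, and Usp2, a deubiquitinase that the clock also drives, was the member below 0.

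Some chaperones of the endoplasmic reticulum went the other way. Of 17 genes of the unfolded protein response, 9 were tested in at least 10 clusters, with 2 above 0 and a median of -0.22 (2 of 9 and -0.17 with the filter on the mean). By class, 1 of 8 members were above 0 in proximal tubule-like nuclei (median -0.42) and 1 of 10 in podocyte-like nuclei (-0.23). In thick ascending limb-like nuclei 5 of 7 were above 0 (0.18), and in principal cell-like nuclei 4 of 5 (0.18). Most of all genes were above 0 as well, 2440 of 3967 over the 19 clusters with the filter on the mean. The members measured also differed between classes. Hspa5 (BiP), the main chaperone of that compartment, stood at 0.435 in Klf4 dEC Nos3 null, 0.769 in Klf4 dEC, 0.594 in the Nos3 null library and 0.751 in the control. Herpud1, which acts in the degradation of misfolded proteins there, stood at 2.26, 3.12, 1.49 and 3.04 in that order and was lower than in the control in 18 of 19 clusters. Canx, the lectin chaperone calnexin, stood at 1.81 in Klf4 dEC Nos3 null and 1.55 in the control. Hspa5 and Herpud1 thus stood on the other side from the cytosolic chaperones, and Canx on the same side.

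Ferritin and most respiratory chain transcripts were higher. Fth1, ferritin heavy chain, stood at 5.76 in Klf4 dEC Nos3 null, 4.52 in Klf4 dEC, 0.953 in the Nos3 null library and 3.00 in the control, and Ftl1, ferritin light chain, at 3.17, 2.07, 0.996 and 1.46 in that order. Both were higher than in the control in 19 of 19 clusters. The haem exporter Flvcr1 stood at 0.940 in Klf4 dEC Nos3 null, 0.897 in Klf4 dEC, 0.624 in the Nos3 null library and 0.389 in the control, and met the shared rule with a median of 1.27 in 10 tested clusters. Over all 19 clusters the median of Flvcr1 was 0.61, with 16 higher and 3 lower. The ferritin and iron list as a whole had 6 of 8 tested genes above 0 (5 of 8 with the filter on the mean), against 2429 of all 3883. The nuclear respiratory chain list had 15 of 16 tested genes above 0 at a median of 0.23, with the ATP synthase subunit Atp5g1 meeting the shared rule at 0.57, and the NRF2 target list 12 of 14 at a median of 0.22. By class the respiratory chain list ran from a median of -0.10 in distal convoluted tubule-like nuclei, with 7 of 16 above 0, to 0.93 in unnamed cluster 12, with 21 of 25 above 0. Transcripts of the mitochondrial genome, which lies outside the nucleus, had 5 of 10 above 0 and a median of -0.02, and nuclear long non-coding and splicing genes had 8 of 12 above 0 and a median of 0.13. Hypoxia-responsive genes had 5 of 5 tested members above 0 with a median of 0.40, of which Ndrg1 stood at 14.1 in Klf4 dEC Nos3 null and 8.18 in the control and Ldha, a glycolytic enzyme, at 0.721 and 0.411. With each cluster's median set to 0, 3 of those 5 were above 0.

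Proximal tubule genes were on both sides among the shared ones. Slc5a12, a sodium-coupled lactate transporter, stood at 8.35 (8.22 to 8.48) in Klf4 dEC Nos3 null, 8.85 in Klf4 dEC, 6.61 in Nos3 null and 14.4 (14.2 to 14.5) in the control and was lower in 19 of 19 clusters. Slc16a9, a carnitine transporter, stood at 1.61, 2.81, 2.97 and 3.03 in that order, and Nat8f3, of a family of N-acetyltransferases, at 1.00, 1.87, 1.84 and 2.30. Nox4, an NADPH oxidase abundant in this segment, stood at 6.36 in Klf4 dEC Nos3 null, 10.4 in Klf4 dEC, 11.7 in the Nos3 null library and 9.55 in the control, and Slc22a4, an organic cation transporter, at 1.22, 1.68, 2.50 and 2.01. The flavin monooxygenase gene Fmo2 also met the rule (median -0.79). Higher were Slc22a12, the urate transporter URAT1, at 1.48 in Klf4 dEC Nos3 null, 1.21 in Klf4 dEC, 1.10 in the Nos3 null library and 0.781 in the control, and Nt5e, the ecto-5′-nucleotidase CD73, which makes adenosine, at 2.35 (2.30 to 2.41), 0.572, 0.928 and 0.803 (0.771 to 0.835) in that order.

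Several of these genes belong to the proximal tubule, yet they met the shared rule in other clusters. Slc5a12 stood at 16.4 in Klf4 dEC Nos3 null and 27.4 in the control in proximal tubule-like nuclei, and at 0.967 and 2.00 in thick ascending limb-like nuclei and 0.770 and 2.11 in principal cell-like nuclei, in that order. The summed proximal tubule markers, Slc5a12 among them, were lower in most of the 14 clusters not named proximal tubule-like. The sums are therefore not independent of the Slc5a12 values. These sums ran from 10.1 to 140 per 10000 in Klf4 dEC Nos3 null and from 14.3 to 136 in the control, with a median log2 ratio of -0.32 and 3 of 14 clusters above 0. The part of the markers in the ratios outside the proximal tubule was not tested. Nt5e stood at 4.53 in Klf4 dEC Nos3 null and 1.42 in the control in proximal tubule-like nuclei and at 3.31 and 0.863 in unnamed cluster 7, while thick ascending limb-like nuclei stood at 0.146 and 0.105. The other summed marker lists read outside their own clusters had medians between -0.54 for connecting tubule markers and 0.26 for urothelium markers, and endothelial cell markers had a median of -0.41 with 4 of 19 clusters above 0.

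Among the remaining shared genes, Gm47283 was past the limit in every cluster. It stood at 1.92 (1.86 to 1.98) in Klf4 dEC Nos3 null, 0.961 in Klf4 dEC, 1.21 in Nos3 null and 0.441 (0.413 to 0.470) in the control, with a log2 ratio past the limit in 19 of 19 clusters (range 1.14 to 2.51). It lies on the Y chromosome from 90784738 to 90816464 on mm10, and reads of near-identical copies may be split, so its level is uncertain. Actg1, cytoplasmic gamma-actin, stood at 1.196, 0.599, 0.515 and 0.509 in the 4 libraries, from Klf4 dEC Nos3 null to control, with a median log2 ratio of 1.03 in 19 clusters. P4ha1, a collagen prolyl hydroxylase subunit, stood at 1.33, 0.945, 1.03 and 0.688, and Ypel2 at 2.17, 1.08, 1.48 and 0.939, in that order. Car5b, a mitochondrial carbonic anhydrase, Rnf2, a Polycomb ubiquitin ligase, Ints6, an Integrator subunit, Nadk, the NAD kinase, and Tpt1, Ppp1r2, Nabp1 and Zfp131 had medians from 0.65 to 1.19 over their tested clusters. Over all 19 clusters these medians ran from 0.51 for Tpt1 to 0.85 for Ints6, with Car5b at 0.57. Lower, Tnfaip8 stood at 6.47 in Klf4 dEC Nos3 null, 12.1 in Klf4 dEC, 15.7 in the Nos3 null library and 10.95 in the control.

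A pair of annotated antisense transcripts met the rule in opposite directions. Gm11520, on chromosome 11 from 95310429 to 95324496, stood at 0.0635 in Klf4 dEC Nos3 null, 0.334 in Klf4 dEC, 0.0620 in the Nos3 null library and 0.567 in the control, past the limit in 15 of 15 tested clusters. Both libraries labelled as lacking Nos3 were low in it. Gm20400 stood at 2.89 in Klf4 dEC Nos3 null, 1.29 in Klf4 dEC, 3.08 in the Nos3 null library and 1.44 in the control, and here both libraries labelled as lacking Nos3 were high. The sources used here do not state whether counting was by strand, so reads of an antisense gene and its partner cannot be told apart. Of the 34 shared genes, 0 lay within 20 Mb of Klf4 or of Nos3, windows that hold 1.17% and 1.61% of 3843 placed genes.

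Just inside the shared rule were Car5b, at 80% of its tested clusters, Nabp1 at 81.25% and Rnf2 and Fmo2 at 81.8%. Just outside were Ftl1 at 78.9%, the co-chaperone gene Dnaja1 at 76.9%, the growth hormone receptor gene Ghr at 78.9% and Hspa5 at 75%. Klf4 dEC Nos3 null was the highest of the 4 libraries for 21 of the 22 higher genes and the lowest for 9 of the 12 lower ones. The control was the lowest for 16 of the 22 and the highest for 9 of the 12. Klf4 dEC lay on the same side of the control as Klf4 dEC Nos3 null for 20 of 22 and 10 of 12 genes, and Nos3 null for 18 of 22 and 9 of 12. The genes were chosen for the difference between Klf4 dEC Nos3 null and the control, so the standing of these libraries at the ends is largely set by that choice. The comparisons also share the control library, so a gene apart in the control lies on the same side in all of them.

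Lists of segment transporters had medians closer to that of all genes. Over genes tested in at least 10 clusters, the list of glucose, amino acid and phosphate transporters had 8 of 17 above 0 (median -0.01), organic ion transporters 7 of 12 (0.04), fatty acid oxidation genes 7 of 12 (0.10) and endocytic receptors 3 of 8 (-0.03). Thick ascending limb transport genes had 8 of 10 above 0 (0.21), and thiazide-sensitive cotransporter and WNK kinase genes 6 of 11 (0.05). Injury and repair genes had 4 of 5 above 0 (0.09) and matrix and fibrosis genes 4 of 8 (-0.01). Nitric oxide and cGMP genes had 1 of 3 above 0 (-0.11), and KLF family genes 1 of 5 (-0.16).

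**Figure D4:**
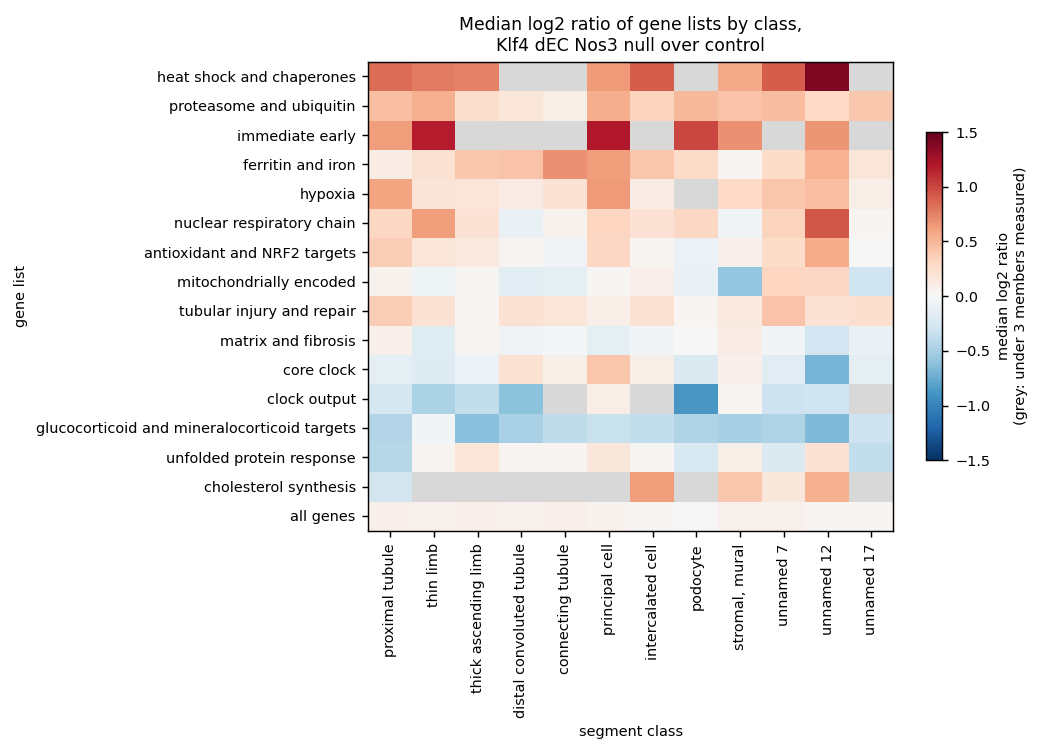
Median log2 ratio of Klf4 dEC Nos3 null over control for each gene list (rows) in each class of clusters (columns), over list members whose mean of both libraries in the class reached the filter. Heat shock genes are at 0.84 in proximal tubule-like nuclei, immediate early genes at 1.196 in principal cell-like and 1.18 in thin limb-like nuclei, and glucocorticoid targets at -0.62 in thick ascending limb-like nuclei.

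A segment gene is one whose class shift, the median log2 ratio over the class's tested clusters, was past the limit, differed by at least 1 from the median of at least 3 tested clusters outside the class, and whose counting interval for the class left out 0. Genes tested in fewer than 3 outside clusters are called restricted. In a class of several clusters the shift can exceed the ratio of the class levels, which also take in clusters below the filter. Of 44 segment genes of the proximal tubule-like, thick ascending limb-like and intercalated cell-like classes, 44 had a ratio of class levels in the same direction and 18 had one past the limit. There were 730 pairs of gene and class, 368 higher and 362 lower, over 668 genes, of which 615 were segment genes of 1 class. Of the pairs, 556 came from the stromal, podocyte-like and unnamed classes, most of which have few UMIs, so the counts of the deeper tubule classes are given first.

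**Figure D5:**
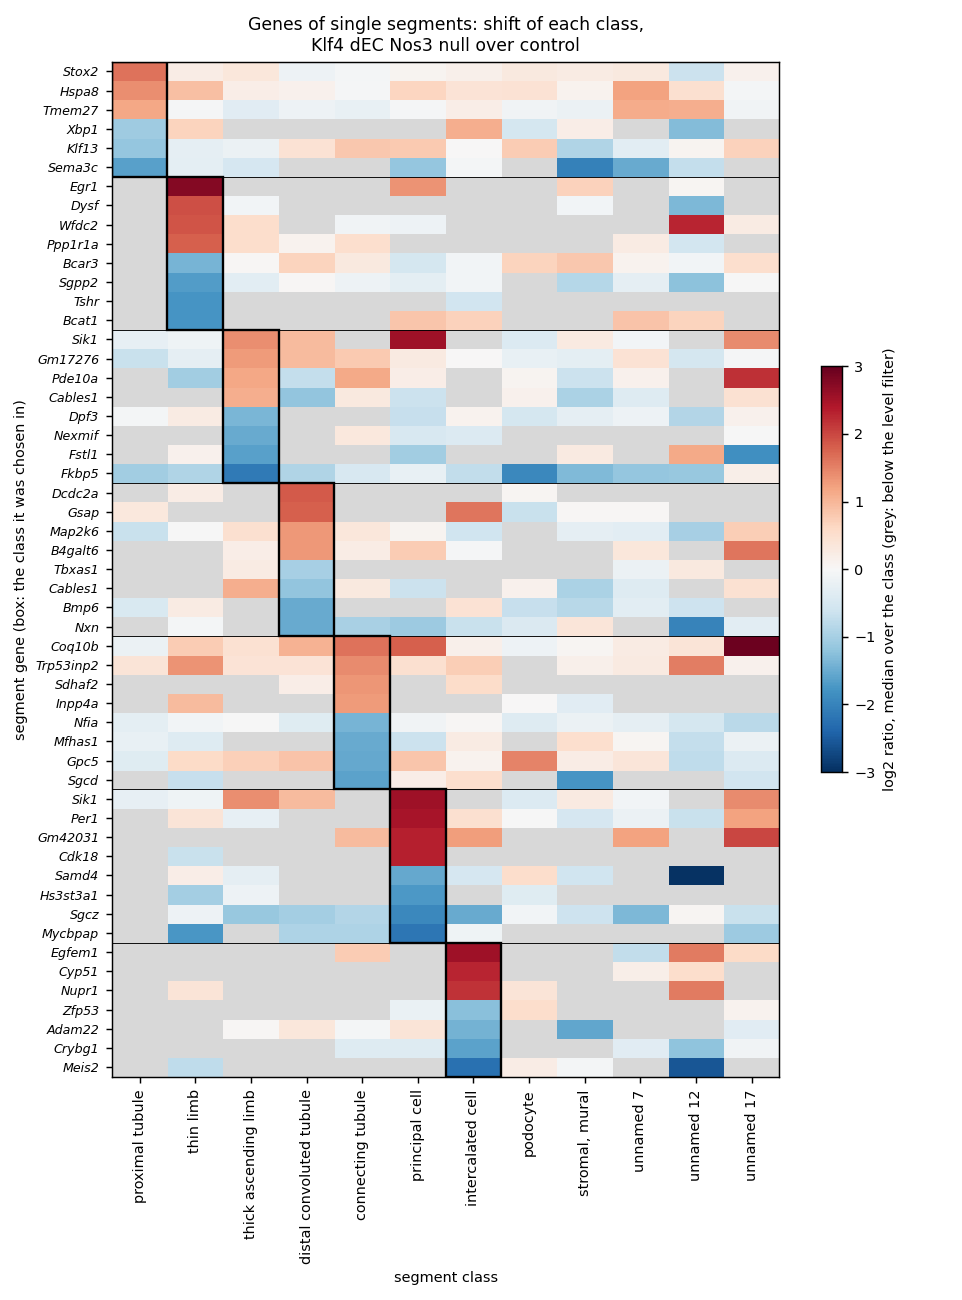
Class shift (colour, log2 ratio of Klf4 dEC Nos3 null over control, grey where below the level filter) of named segment genes of the 7 tubule classes (rows) in all 12 classes (columns), with a box around the class in which each gene was chosen, so the boxed values are large by choice. Sik1 is at 2.54 in principal cell-like nuclei and 1.40 in thick ascending limb-like nuclei, and Fkbp5 is below 0 outside its box too, except in unnamed cluster 17.

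Proximal tubule-like nuclei had 3 segment genes higher (0.0837% of 3583) and 3 lower (0.0837%), the fewest of the 9 named classes. Hspa8 stood at 2.74 (2.64 to 2.84) in Klf4 dEC Nos3 null, 0.897 in Klf4 dEC, 1.21 in Nos3 null and 1.02 (0.971 to 1.07) in the control, a shift of 1.38 against 0.31 outside. Stox2 stood at 0.880, 0.301, 0.976 and 0.327 in that order, and Tmem27 (collectrin), which brings amino acid transporters to the brush border, at 3.65, 2.16, 1.38 and 1.67. The HSP90 genes were also higher here, Hsp90ab1 at 1.58 in Klf4 dEC Nos3 null and 0.493 in the control and Hsp90aa1, a restricted gene, at 0.563 and 0.174. Abcb1b, a P-glycoprotein drug exporter and restricted gene, stood at 0.441 (0.401 to 0.483) in Klf4 dEC Nos3 null, 0.0255 in Klf4 dEC, 0.138 in Nos3 null and 0.0439 (0.0341 to 0.0556) in the control. A larger ratio of Hspa8 in this class than outside is part of the segment rule by which it was chosen. Of the chaperones measured in proximal tubule-like nuclei with the filter on the mean, 5 of 5 were above 0 (median 0.84).

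Lower in proximal tubule-like nuclei were Sema3c, a secreted semaphorin, at 0.615 in Klf4 dEC Nos3 null, 2.32 in Klf4 dEC, 1.298 in the Nos3 null library and 2.47 in the control, and the KLF factor Klf13, at 0.443, 1.202, 0.975 and 0.967 in that order. Xbp1, the transcription factor of the unfolded protein response, stood at 0.264 (0.235 to 0.296) in Klf4 dEC Nos3 null, 0.616 in Klf4 dEC, 0.221 in Nos3 null and 0.544 (0.506 to 0.583) in the control. Hspa5 stood at 0.392 in Klf4 dEC Nos3 null and 1.00 in the control in these nuclei, and the disulphide isomerase Pdia4 at 0.122 and 0.419. Some of the segment's own transporters and receptors differed little. The phosphate transporter Slc34a1 stood at 57.5 in Klf4 dEC Nos3 null and 50.8 in the control. The glucose transporter Slc5a2 stood at 3.79 and 3.64, and the endocytic receptor Lrp2 at 16.3 and 17.97, in that order. Others differed more. Median log2 ratios over the class's clusters were -0.76 for Slc5a12, -0.87 for Slc16a9, -0.79 for Slc22a4 and 0.97 for Slc22a12. The 14 proximal tubule markers had 7 above 0 and a median of -0.01.

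Thick ascending limb-like nuclei had 4 segment genes higher (0.101% of 3949) and 5 lower (0.127%). Sik1, a salt-inducible kinase, stood at 0.410 in Klf4 dEC Nos3 null, 0.306 in Klf4 dEC, 0.497 in the Nos3 null library and 0.187 in the control, and Pde10a, a phosphodiesterase of cyclic nucleotides, at 0.899, 0.450, 1.15 and 0.428 in that order. Gm17276 stood at 6.30 (6.06 to 6.54), 3.00, 4.77 and 2.76 (2.61 to 2.92). Lower beside Fkbp5 was Fstl1, a secreted follistatin-like protein, at 0.196 (0.157 to 0.242) in Klf4 dEC Nos3 null and 0.774 (0.695 to 0.860) in the control. Nexmif, at 0.259 and 0.395, and Dpf3, at 0.308 and 0.483, were lower too, in the same order. Their class levels gave log2 ratios of -0.46 and -0.51, which are not past the limit. Tsc22d3 stood at 0.162 in Klf4 dEC Nos3 null and 0.606 in the control. Glucocorticoid targets in this class were 1 of 7 above 0, with a median of -0.62. The cotransporter Slc12a1, the target of loop diuretics, stood at 202 in Klf4 dEC Nos3 null and 214 in the control, uromodulin (Umod) at 25.8 and 16.6, Egf at 74.5 and 97.6 and the calcium-sensing receptor Casr at 2.71 and 4.57, so none of these passed the limit. Salt transport genes of the class were 9 of 16 above 0, with a median of 0.02, against 2314 of 3775 genes and 0.07.

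Principal cell-like nuclei had 18 segment genes higher (0.453% of 3977) and 12 lower (0.302%). The restricted gene Ctse, the protease cathepsin E, stood at 1.17 (0.963 to 1.41) in Klf4 dEC Nos3 null and 0.0216 (0.00259 to 0.0785) in the control, and the segment gene Sik1 at 0.859 (0.683 to 1.07) and 0.0649 (0.0237 to 0.142). Klf4 dEC and Nos3 null stood at 0.0297 and 0.0591 for Ctse and at 0.0983 and 0.303 for Sik1. Klf4 dEC Nos3 null was the high library in both genes, but both passed the filter only through it and were named by size. Its standing above the control is therefore set by that choice. Cdk18 stood at 1.29 in Klf4 dEC Nos3 null, 0.196 in Klf4 dEC, 0.322 in the Nos3 null library and 0.173 in the control, and Gm42031 at 8.602, 3.31, 1.49 and 1.61 in that order.

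Water channels of the principal cell were higher while its sodium channel was not. Aqp2, the vasopressin-regulated water channel of the luminal side, stood at 11.9 (11.2 to 12.6) in Klf4 dEC Nos3 null, 6.88 in Klf4 dEC, 4.68 in Nos3 null and 3.21 (2.86 to 3.60) in the control, a log2 ratio of 1.86. Aqp3, the water channel of the opposite side, stood at 3.43 (3.07 to 3.82), 1.27, 1.03 and 0.971 (0.780 to 1.19) in that order (1.72). The vasopressin receptor Avpr2 stood at 0.608 (0.462 to 0.786) in Klf4 dEC Nos3 null and 0.433 (0.309 to 0.590) in the control, with overlapping intervals. The sodium channel subunits Scnn1b, at 6.43 in Klf4 dEC Nos3 null and 6.69 in the control, and Scnn1g, at 3.51 and 3.71, stood close together. Hsd11b2, which shields the mineralocorticoid receptor from glucocorticoids, stood at 4.18 in Klf4 dEC Nos3 null and 3.06 in the control. Over this list of water channel and sodium channel genes 7 of 10 were above 0, with a median of 0.34. Of all genes in the class with the filter on the mean, 2196 of 3842 were above 0, with a median of 0.05.

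Immediate early genes, the transcription factors switched on first by a stimulus, were higher in the same cluster. Nr4a1 stood at 1.32 (1.10 to 1.57) in Klf4 dEC Nos3 null, 0.884 in Klf4 dEC, 0.152 in Nos3 null and 0.0689 (0.0261 to 0.147) in the control. Junb stood at 1.46 in Klf4 dEC Nos3 null and 0.579 in the control. Nr4a2, at 0.691 and 0.0645 in the same order, entered only through Klf4 dEC Nos3 null. Fos, at 0.416 and 0.0917, was below the level filter in both libraries and so was not tested. Neither Nr4a2 nor Fos reached the filter on the mean of both libraries. All 5 immediate early genes that reached the filter on the mean were above 0 in principal cell-like nuclei, 4 of them past the limit, with a median of 1.196, against 70 of 3842 genes (1.82%) past the limit higher. Over the 19 clusters 2 of 22 listed genes were tested in at least 10, Jun at 0.717 in Klf4 dEC Nos3 null and 0.424 in the control and Dusp1 at 0.866 and 0.471. Lower in principal cell-like nuclei were Sgcz, a sarcoglycan, at 0.415 (0.296 to 0.566) in Klf4 dEC Nos3 null and 1.88 (1.61 to 2.18) in the control, Mycbpap at 0.137 and 0.961, Hs3st3a1, a heparan sulphate sulphotransferase, at 0.212 and 0.925, and the restricted genes Rftn1 and Coro2a.

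Distal convoluted tubule-like nuclei had 9 segment genes higher (0.228% of 3953) and 4 lower (0.101%). The thiazide-sensitive cotransporter Slc12a3, which defines the segment, stood at 191 (188 to 194) in Klf4 dEC Nos3 null, 212 in Klf4 dEC, 176 in Nos3 null and 189 (186 to 192) in the control. Trpm6, its magnesium channel, stood at 21.04 (20.1 to 22.1), 22.4, 23.3 and 38.6 (37.2 to 39.95) in that order, a log2 ratio of -0.87, with the control above the other 3 libraries. Map2k6, a kinase upstream of p38, stood at 1.26 in Klf4 dEC Nos3 null, 1.21 in Klf4 dEC, 1.22 in the Nos3 null library and 0.447 in the control, and here the control was below the other 3. Gsap stood at 0.543 in Klf4 dEC Nos3 null and 0.0868 in the control, and Dcdc2a at 0.580 and 0.0899. Lower among the segment genes was Bmp6, a BMP ligand, at 0.329 in Klf4 dEC Nos3 null, 1.04 in Klf4 dEC, 1.98 in the Nos3 null library and 1.12 in the control, beside Nxn, Cables1 and Tbxas1. Lower among the restricted genes were Grin3a, a glutamate receptor subunit, at 0.921 (0.726 to 1.15) in Klf4 dEC Nos3 null, 3.84 in Klf4 dEC, 1.58 in Nos3 null and 3.43 (3.04 to 3.86) in the control, and Cwh43 at 2.68, 4.89, 4.29 and 7.45 in that order. Of the thiazide cotransporter and WNK list, 6 of 14 were above 0 in this class, with a median of -0.05.

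Connecting tubule-like nuclei had 5 segment genes higher (0.13% of 3840) and 6 lower (0.156%). Coq10b, a coenzyme Q binding protein, stood at 0.765 (0.562 to 1.02) in Klf4 dEC Nos3 null, 0.266 in Klf4 dEC, 0.546 in Nos3 null and 0.179 (0.0925 to 0.313) in the control. Gpc5, a glypican, stood at 0.944 (0.717 to 1.22) in Klf4 dEC Nos3 null, 3.33 in Klf4 dEC, 0.791 in Nos3 null and 2.92 (2.53 to 3.37) in the control, so the pair of libraries labelled as lacking Nos3 was low. Nfia, a transcription factor, stood at 0.446, 0.525, 4.85 and 1.34 in that order, and the Nos3 null library was the high one. Of the calcium genes of the segment, calbindin (Calb1) and the channel Trpv5 differed little. Calb1 stood at 25.7 in Klf4 dEC Nos3 null and 25.1 in the control, and Trpv5 at 1.66 and 1.86. The list leaned lower, with 3 of 9 genes above 0 (median -0.21). The 7 connecting tubule markers, which include Calb1, Trpv5 and the exchanger Slc8a1, summed to 623 in Klf4 dEC Nos3 null and 811 in the control (log2 ratio -0.38). Calb1 and Trpv5 are a small part of that sum, so its difference rests on other members and does not describe the markers one by one.

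Intercalated cell-like nuclei had 19 segment genes higher (0.426% of 4457) and 10 lower (0.224%). Cyp51, an enzyme of cholesterol synthesis, stood at 0.553 (0.421 to 0.714) in Klf4 dEC Nos3 null, 0.325 in Klf4 dEC, 0.297 in Nos3 null and 0.173 (0.103 to 0.271) in the control. Msmo1, a restricted gene of the same pathway, stood at 0.665, 0.186, 0.205 and 0.0623 in that order, and Srebf2, the factor that drives both, at 1.73 (1.49 to 1.98), 0.916, 1.23 and 0.514 (0.379 to 0.682). Hmgcs1, an early enzyme of the pathway, stood at 1.73 in Klf4 dEC Nos3 null and 1.49 in the control, with overlapping intervals (1.502 to 1.98 and 1.26 to 1.75). With the filter on the mean 3 of 15 listed cholesterol genes entered, all 3 above 0 with a median of 0.63, of which 1 passed the limit, against 33 of 3873 genes (0.852%) higher. Over the 19 clusters this list had 1 of 2 tested genes above 0. The anion exchanger pendrin (Slc26a4) stood at 49.5 in Klf4 dEC Nos3 null and 51.0 in the control, and 8 of 19 acid-base genes were above 0 (median -0.04). Lower was Meis2, a homeobox factor, at 0.172 in Klf4 dEC Nos3 null and 0.332 in the control. Its class levels gave a log2 ratio of -0.66, with a counting interval of -1.79 to -0.0988. The restricted gene Emcn, an endothelial sialomucin, was lower too, at 0.0495 and 0.262 in that order. The summed levels of 12 endothelial markers differed in direction between the 2 clusters of the class, at 0.796 in Klf4 dEC Nos3 null and 0.396 in the control in cluster 14, with 2 and 3 of the markers at 0, and at 0.329 and 1.67 in cluster 16, with 5 and 2 at 0. Meis2 and Emcn are both among these markers, and the part of endothelial transcripts in their values was not tested.

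The shallower classes are given by their best supported genes. Thin limb-like nuclei, with 312404 effective UMIs in Klf4 dEC Nos3 null and 371617 in the control, had 48 segment genes higher (1.14% of 4203) and 28 lower (0.666%). The immediate early gene Egr1 stood at 2.63 (2.10 to 3.27) in Klf4 dEC Nos3 null, 1.17 in Klf4 dEC, 1.302 in Nos3 null and 0.303 (0.153 to 0.539) in the control. The list had 7 of 7 genes above 0 there, 6 past the limit, with a median of 1.18, against 104 of 4056 genes (2.56%) past it higher. The restricted gene Fam20a, a secretory-pathway pseudokinase, stood at 1.57 (1.16 to 2.07) in Klf4 dEC Nos3 null, 0.103 in Klf4 dEC, 0.0782 in Nos3 null and 0.116 (0.0337 to 0.288) in the control. Lower were Tshr, the thyrotropin receptor, at 1.80 (1.36 to 2.33) in Klf4 dEC Nos3 null, 0.837 in Klf4 dEC, 1.04 in Nos3 null and 6.35 (5.57 to 7.22) in the control, and the branched-chain aminotransferase Bcat1 at 1.83, 2.99, 0.961 and 6.49 in that order.

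Podocyte-like nuclei had 24 segment genes higher (0.704% of 3411) and 21 lower (0.616%). Hivep2 stood at 6.44 (5.68 to 7.27) in Klf4 dEC Nos3 null, 3.46 in Klf4 dEC, 5.41 in Nos3 null and 2.11 (1.66 to 2.63) in the control, and its relative Hivep1 at 2.22, 1.18, 2.55 and 0.645 in that order. Both encode zinc-finger factors. The slit diaphragm gene Nphs1 (nephrin) stood at 21.8 in Klf4 dEC Nos3 null, 23.3 in Klf4 dEC, 16.7 in the Nos3 null library and 18.4 in the control. Podocyte markers were 6 of 8 above 0, with a median of 0.15. Stromal and mural cell-like nuclei had 25 higher (0.595% of 4205) and 48 lower (1.14%) segment genes. The restricted gene Corin, the protease that activates atrial natriuretic peptide, stood at 2.76 (2.10 to 3.56) in Klf4 dEC Nos3 null, 0.196 in Klf4 dEC, 0.0745 in Nos3 null and 0.156 (0.0494 to 0.368) in the control, and Peg3, also restricted and an imprinted zinc-finger gene, at 0.243, 2.25, 1.42 and 2.24 in that order. Corin was highest in thin limb-like cluster 18, at 16.1 in Klf4 dEC Nos3 null and 21.6 in the control. The summed levels of 9 thin limb markers, Corin among them, in the stromal cluster were 5.73 in Klf4 dEC Nos3 null and 1.77 in the control (log2 ratio 1.64), with 0 and 1 of the markers at 0. The sum is therefore not independent of Corin, and the part of the other markers in the Corin difference was not tested. Matrix and fibrosis genes in that class were 11 of 17 above 0, with a median of 0.12. Most of all genes were above 0 too. Pooled over the clusters with the filter on the mean these were 2440 of 3967, with a median of 0.06.

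Among the unnamed clusters, cluster 7 had 1 segment gene higher (0.0243% of 4117) and 0 lower (0%). The higher one was Tmem27, at 2.31 in Klf4 dEC Nos3 null and 1.02 in the control. Cluster 17 had 64 segment genes higher (1.56% of 4090) and 63 lower (1.54%), with Coq10b at 1.10 (0.697 to 1.65) in Klf4 dEC Nos3 null and 0.0556 (0.00537 to 0.217) in the control. In cluster 12, with 148 higher (3.44% of 4298) and 162 lower (3.77%), ferritin and ubiquitin transcripts stood out in level, with Fth1 at 56.6 in Klf4 dEC Nos3 null and 13.9 in the control and Ubb at 8.18 (6.41 to 10.3) and 2.97 (2.03 to 4.20).

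Over 2073 genes tested in every cluster, Pearson's r between clusters had a median of 0.338 over 171 pairs, 0.672 over the 14 pairs within a class (0.239 to 0.803) and 0.323 over the 157 pairs between classes (0.0335 to 0.775). The ranges overlap, and pairs within a class are mostly of the deeper proximal tubule-like and thick ascending limb-like clusters. These are correlations across genes within the same pair of libraries, so the clusters share those libraries, and genes are not independent replicates.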

How the data were processed

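Nuclear RNA from kidney cortex was sequenced on the 10X Chromium system, 1 library per genotype. Per the labels' protocols, perfused kidneys were kept in an RNA-preserving solution and a detergent buffer freed the nuclei of a cortex sample. The mm10 build, Seurat and Cell Ranger are named in the submitters' processing notes. The sources used here give no versions, clustering steps, nuclei filters or doublet treatment. The deposited table holds a normalized signal, mean UMIs per 10000 UMIs, for 21046 genes in 92 columns (23 clusters in 4 libraries), each summing to 10000. All columns were matched to libraries by title. It holds averages, so barcodes shared between libraries were not counted.

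Nuclei numbers were recovered from the reciprocals of the lowest values and effective UMIs from the levels of genes with 1 UMI, and are inferred values. The recovery and the gene rules were tested on simulated data. Level intervals are 95% exact Poisson intervals on effective UMIs. Ratios, filter and limits are as stated with the results. The members, gene lists and rules were chosen with earlier results of these data known. Clusters were named from marker lists, with naming limits set after the table was seen. Named genes are the 15 highest and 15 lowest shared genes, per class 4 and 4 segment and 2 and 2 restricted genes by size, and per list the 4 members with the largest ratio, with Klf4, Nos3 and sex chromosome genes. Genes outside this rule, such as segment transporters and the remaining shared genes, were chosen after their values were seen. Python 3.11.15, numpy 2.4.6, pandas 2.3.3, scipy 1.17.1 and matplotlib 3.10.9 were used. A few genes that the rule names are not reported here. Promoters are from RefSeq (GRCm38.p6). Alternatives were the pseudocount, level filter, scaling, clusters used and rule limits.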

Additional observations from a re-analysis of the deposited data

Results flagged for a closer look

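Over all genes tested in a class, 42 had class shifts past the limit in opposite directions in 2 classes, with counting intervals that left out 0 in both. For 12 of these both classes carried a name. Each difference between classes was not tested, since there is 1 library a side. Cables1 had a log2 ratio of Klf4 dEC Nos3 null over control of 1.09 in thick ascending limb-like and -1.19 in distal convoluted tubule-like nuclei, though the class levels in the thick ascending limb gave 0.56. Nuak2 had 1.06 in distal convoluted tubule-like and -1.03 in thick ascending limb-like nuclei (-0.89 by class levels). Xbp1, the unfolded protein response factor, had 1.09 in intercalated cell-like and -1.07 in proximal tubule-like nuclei, where class levels gave 0.55 and -0.82. Soga1 had 1.48 in intercalated cell-like and -1.03 in thin limb-like nuclei. Gpc5 had 1.48 in podocyte-like and -1.54 in connecting tubule-like nuclei, and Stk32a 1.18 in thin limb-like and -1.12 in connecting tubule-like nuclei.

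Fam129a had 1.89 in principal cell-like and -1.11 in stromal and mural cell-like nuclei. Against the same stromal class, Iigp1 had 2.89 in thin limb-like nuclei and -1.74, Opcml 1.56 in podocyte-like nuclei and -1.54, Rbfox1 1.54 in thin limb-like nuclei and -1.26, and Rbms2 1.05 in distal convoluted tubule-like nuclei and -1.04. Tenm2 had 1.05 in thin limb-like and -1.13 in podocyte-like nuclei.

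Clusters outside the 19 were not used to choose the shared genes, though they come from the same libraries. In the endothelial cell-like cluster 10, 14 of 17 tested shared genes that were higher in the 19 clusters were higher, and 9 of 10 that were lower were lower, against 56.7% of all tested genes higher and 43.3% lower. In cluster 20 these were 12 of 16 and 8 of 9 (all genes 52.8% and 47.2%), and in cluster 21 they were 15 of 18 and 9 of 10 (52.9% and 47.1%).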

How the results depend on the processing

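None of the 34 shared genes or named segment genes changed direction under any alternative run. A larger pseudocount cannot change the sign of a ratio, and changed rule limits leave the ratios of a gene as they were. The genes were also chosen for large ratios, so this outcome was largely set in advance. Counts did change. A pseudocount of 0.5 gave 626 higher and 426 lower pairs past the limit, 7 and 5 shared genes, 240 and 294 pairs after the shared shift and 140 and 153 segment genes, in the same order of higher and lower throughout. A filter of 1 per 10000 gave 1038 and 728, 14 and 6, 341 and 464, and 146 and 208 for the same counts. With no filter these were 6373 and 4931, 13 shared higher, 4759 and 5298, and 1134 and 797. With clusters 7, 12, 13, 15 and 17 left out they were 1058 and 596, 13 shared higher, 391 and 419, and 97 and 63. With cluster 12 alone left out, chosen after the data were seen, they were 1508 and 992, 587 and 683, and 213 and 202, with 22 and 14 shared genes. Median-ratio rescaling, under which the median shift of all genes taken away was at most 0.156, gave 14 and 16 shared genes. It gave list members above 0 of 3 (mitochondrially encoded), 0 (clock output), 0 (glucocorticoid), 3 (glucose, amino acid and phosphate transport), 2 (sex chromosome), 1 (osmolyte), 0 (leukocyte adhesion) and 3 (hypoxia). Asking for 100% of clusters gave 3 and 2 shared genes, for 60% 77 and 31, and for a size of 0.3 95 and 29. An outside difference of 0.5 gave 733 segment genes higher. With the filter on the mean of both libraries, chosen after the data were seen, members above 0 numbered 13 (organic ion), 8 (sex-biased), 3 (sodium channel), 0 (MHC) and 0 (leukocyte adhesion). Of the 34 shared genes, 12 stayed shared with the larger pseudocount, 14 with the filter of 1, 19 with no filter, 15 with the 5 clusters left out, 26 under rescaling and 32 without cluster 12. Npas2 and Arntl lost the call with the filter of 1 and with the 5 clusters left out, Per2 under both and with the larger pseudocount, Hsph1 with the larger pseudocount and both changed filters, Stip1 under these and with the 5 clusters left out, and Fkbp5 and Tef with the larger pseudocount. The cause of these changes was not tested, beyond the fewer genes or clusters that some alternatives use. No paired analysis was possible because each genotype has 1 library, so no replicate could be left out either. Depth limits the calls most in cluster 12, where 3 counts equal 0.336 per 10000 in Klf4 dEC Nos3 null and 0.2803 in the control.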
